A study of Mus musculus with 11 samples.

Results

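The genes described here are the 3 Myc genes Myc, Mycn and Mycl, the MYC partner gene Max, the MAX-binding gene Mga, and the RNA-binding protein genes Lin28a and Lin28b. They were chosen by name, 7 of the 30244 gene names found in any table of the series. All 7 had a column in each of the 5 single-cell tables, and 6 of them were listed in the bulk table, where Lin28b had no row. The cells were mouse embryonic stem (ES) cells, all grown with the cytokine LIF. Bulk RNA-seq (Smart-seq2 on about 1000 cells of the reporter line Rex1GFPd2 per library, labelled wild type) gave 3 libraries from agarose microgels and 3 from tissue-culture plastic, both in 2i/LIF, a medium with MEK and GSK3 inhibitors. Droplet-based single-cell RNA-seq (inDrop), which counts unique molecular identifiers (UMIs), was done on wild-type E14 cells on plastic in either medium and in gels in serum/LIF. It also covered 2 lines in serum/LIF on plastic, labelled with high (PGHIGH) and low (PGLOW) plakoglobin overexpression driven constitutively by the CAG promoter. These are called the libraries labelled JupHigh and JupLow, after the plakoglobin gene Jup; the labels name no parent line and no number of clones for them. Each single-cell condition was 1 library. Differences between them were therefore not checked against replicates, and the intervals given reflect counting error alone.

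MYC, MYCN and MYCL are basic helix-loop-helix leucine zipper proteins that bind DNA as dimers with MAX, at E-boxes, and raise the output of genes for ribosome making, nucleotide synthesis and metabolism. MGA also dimerises with MAX, and with PCGF6, L3MBTL2 and E2F6 it forms a non-canonical polycomb complex that silences germline genes in ES cells. LIN28A and LIN28B bind precursors of the let-7 microRNA and block their maturation, while mature let-7 represses LIN28 transcripts. In ES cells MYC proteins sustain growth and division, cells in 2i have low MYC activity, and LIN28A marks pluripotent and early post-implantation states.

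The bulk libraries held 636907 to 2582017 reads, and the single-cell libraries held 112 to 2889 cells of 1000 or more UMIs, with median depths of 1731.5 to 2465 UMIs per cell. No cell barcode was shared between the 5 libraries. The wild-type gel library held 112 cells and 236195 UMIs. Its table ends within a line and starts every barcode with A, so it may hold only part of that library. Levels below are counts scaled to the same total in every library, as CPM. Jup stood at 47.8 CPM in the library labelled JupHigh, 37.9 CPM in JupLow and 36.7 CPM in serum/LIF wild type on plastic, with 95% Poisson intervals that all overlapped, and at 46.7 CPM in 2i/LIF wild type. The counts thus do not clearly bear out the labels, although gene counts need not include every transcript of a transgene. In the wild-type serum/LIF table, some genes were counted unlike in the others: Sox2 and Nme1 had no column there, and Nme2 held 1109 UMIs against at most 2 in each of the other 4 tables. The ES cell marker list of 8 genes summed to 2199 to 3921 CPM, with every marker that had a column detected. The primitive endoderm list of 13 genes summed to 2024 CPM in the wild-type serum/LIF library and to 230 to 613 CPM in the other 4 libraries.

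The let-7 family is the best known regulator of the Lin28 transcripts, so its sequences are shown first, from RefSeq. From the RefSeq table, mature let-7 microRNAs that share bases 2 to 8, the seed, with let-7a were kept, which gave 9. The seed is printed in capitals for the 2 family members below. The part of the transcript after the stop codon was searched for CTACCTC, the letters that pair with that seed, on the transcript strand and in the longest such part of each gene in GENCODE M21 on GRCm38. Lin28a held 2 matches in 2775 bases and Lin28b held 4 in 4445 bases, while Myc, Mycn, Mycl, Max and Mga held 0, in 466, 913, 1970, 1299 and 4616 bases. Of 21143 genes with such a stretch, 10.1% held a match. The Lin28 matches are printed below in 23-base windows with the match in capitals, numbered by the first base after the stop codon. A match is a description of letters and not a measured site, and let-7 itself was not measured by these poly(A) libraries.
mmu-let-7a-5p: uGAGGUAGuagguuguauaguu
mmu-let-7g-5p: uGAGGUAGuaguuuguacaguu
Lin28a, base 909: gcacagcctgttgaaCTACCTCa
Lin28a, base 1547: gagatcgccacaaacCTACCTCa
Lin28b, base 36: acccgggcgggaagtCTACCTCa
Lin28b, base 2410: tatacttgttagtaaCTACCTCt
Lin28b, base 2582: gtttacagcacatggCTACCTCc
Lin28b, base 3998: aaatgatggcaccgaCTACCTCt

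**Figure D1:**
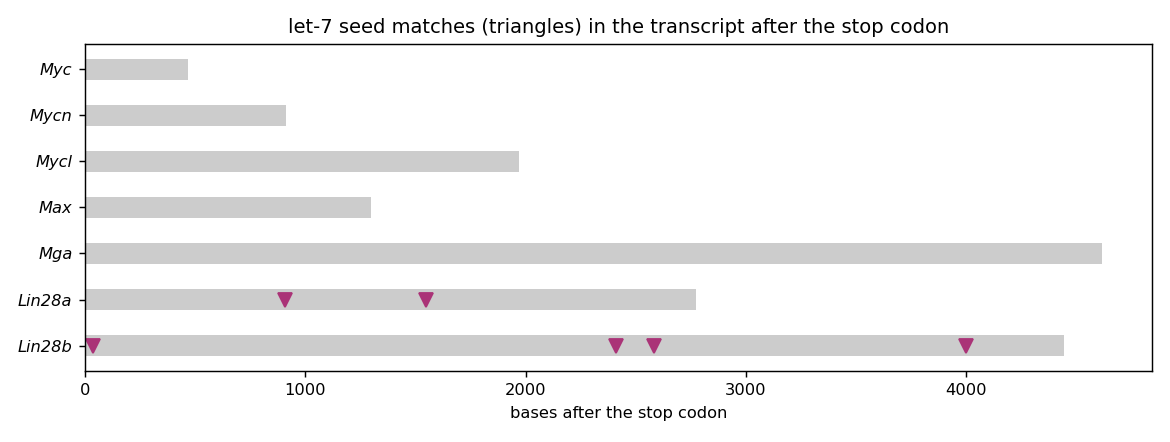
Map of the transcript after the stop codon (grey bars, to scale, in bases) for the 7 genes, with let-7 seed matches as triangles. The 2 matches of Lin28a and the 4 of Lin28b are the only ones among the 7 genes.

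The genes lie on 5 chromosomes of GRCm38. Myc is at chr15:61985391-61990374 on the plus strand, Mycn at chr12:12936093-12941914 on the minus strand and Mycl at chr4:122995652-123002485 on the plus strand. Max is at chr12:76937269-76962201 on the minus strand and Mga at chr2:119897228-119969581 on the plus strand. Lin28a is at chr4:134003330-134018841 and Lin28b at chr10:45376620-45486395, both on the minus strand. All are protein coding. Lin28a shares 234 exon bases with an antisense gene, Gm13061, and Max overlaps Gm47218 with 0 shared exon bases; whether the counting used strand is not given in the sources used here.

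Mycn, Lin28a and Lin28b were lower in 2i/LIF than in serum/LIF (below), so their RefSeq promoter windows are printed, from 250 bases before to 50 bases after the gene start, on GRCm38.p6 and in the gene's direction. Windows were found for 6 of the 7 genes. For Lin28b the RefSeq start, base 45470201, is that of its 1 protein-coding transcript in GENCODE and lies 16194 bases inside the gene span given above, which transcripts without a coding sequence extend upstream. Letters searched on both strands were CACGTG, the E-box that MYC-MAX dimers bind, CTTTGAA and CTTTGAT, the core letters of TCF sites on which GSK3 inhibition acts through beta-catenin, TTCNNNGAA, the core of STAT sites downstream of LIF, and TTTGGCGC, an E2F site. No match overlapped another. CACGTG was found once each in Max and Lin28b and in 7.24% of 27025 promoters. CTTTGAA was found in Mycn, on the reverse strand, and in Lin28a, against 5.27% of promoters, and CTTTGAT in none of the 6, against 3.72%. TTCNNNGAA was found at 2 places in Lin28a, against 8.47% of promoters with at least 1, and TTTGGCGC at 2 places in Mycn, against 0.537%. Capitals mark these matches; binding was not measured.
Mycn, chr12:12941787-12942086, minus strand: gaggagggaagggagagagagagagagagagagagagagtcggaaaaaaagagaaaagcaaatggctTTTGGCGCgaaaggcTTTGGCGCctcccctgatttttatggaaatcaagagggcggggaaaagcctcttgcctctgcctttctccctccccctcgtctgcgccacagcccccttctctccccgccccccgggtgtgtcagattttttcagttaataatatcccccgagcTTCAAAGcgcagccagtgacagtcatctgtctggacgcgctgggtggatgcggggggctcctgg
Lin28a, chr4:134018767-134019066, minus strand: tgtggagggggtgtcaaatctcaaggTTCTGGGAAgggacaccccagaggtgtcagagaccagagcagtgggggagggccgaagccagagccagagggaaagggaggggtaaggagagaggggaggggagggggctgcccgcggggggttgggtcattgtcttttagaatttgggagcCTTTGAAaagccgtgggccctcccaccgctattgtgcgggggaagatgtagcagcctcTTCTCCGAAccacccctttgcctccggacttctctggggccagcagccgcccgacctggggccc
Lin28b, chr10:45470152-45470451, minus strand: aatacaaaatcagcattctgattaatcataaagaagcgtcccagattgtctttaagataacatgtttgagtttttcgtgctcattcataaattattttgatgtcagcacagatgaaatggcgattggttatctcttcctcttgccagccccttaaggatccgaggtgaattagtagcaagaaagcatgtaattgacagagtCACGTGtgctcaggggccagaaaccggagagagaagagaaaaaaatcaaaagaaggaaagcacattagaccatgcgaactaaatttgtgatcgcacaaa

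Across the single-cell libraries, Myc and Mycn were lowest in 2i/LIF and higher in all 4 serum/LIF libraries. Myc, the family member best known from growth control and cancer, stood at 68.4 CPM (95% Poisson interval 57.5 to 80.8) in wild-type serum/LIF cells on plastic. It stood at 93.1 CPM (58.4 to 141) in gels, 120.6 CPM (108 to 134) in JupLow and 97.0 CPM (87.9 to 107) in JupHigh. In 2i/LIF it was at 19.1 CPM (16.2 to 22.3), from 158 UMIs in 2889 cells, and no interval of the serum/LIF libraries reached down to that value. In order, JupLow lay above JupHigh beyond counting error at this scaling, with an interval of -0.523 to -0.105 for JupHigh over JupLow (log2). TMM factors, an alternative scaling between libraries, moved that comparison up by 0.109, and its interval then included 0. JupHigh lay above wild-type serum/LIF on plastic, while the gel library, between these, could not be told from either.

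Mycn, the Myc gene known for its role in early embryos and neural progenitors, stood at 314 CPM (290 to 340) in wild-type serum/LIF cells on plastic and 466 CPM (383 to 561) in gels. It was at 369 CPM (347 to 391) in JupLow, 352 CPM (335 to 371) in JupHigh and 148 CPM (139 to 156) in 2i/LIF. At this scaling the gel library was highest and 2i/LIF lowest, both beyond counting error from their neighbours. JupLow and JupHigh did not differ from each other beyond it. Gel lay above JupLow by a log2 ratio of 0.34 (0.04 to 0.62). With TMM factors, 1.069 for gel and 0.999 for JupLow, that interval included 0, so the top rank of gel depends on the scaling. Before thinning, the variance of Mycn UMIs among cells was 2.15 times the mean in gels and 2.58 times in JupLow. The intervals leave this spread between cells out. Mycl, the least studied Myc gene, was near the detection limit, with 1 UMI in the gel library, 14 in wild-type serum/LIF on plastic and 24 in JupLow. Its level was 15.7 CPM (13.1 to 18.6) in 2i/LIF and 13.9 CPM (10.6 to 17.9) in JupHigh, against 6.94 CPM (3.79 to 11.6) in wild-type serum/LIF on plastic and 8.34 CPM (5.34 to 12.4) in JupLow.

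Barcodes under 500 UMIs, which hold small cells and free RNA, gave Myc at 80.2 to 142 CPM and Mycn at 290 to 449 CPM in the 4 serum/LIF libraries. In JupHigh both genes were higher there than in the cells, and in wild-type serum/LIF on plastic Mycn was, at 370 CPM. In JupLow both were below the intervals of the cells, Mycn at 327 CPM and Myc at 100 CPM, and in gels Mycn was lower, at 290 against 466 CPM. In wild-type serum/LIF on plastic, Max at 155 CPM and Lin28a at 199 CPM were above the intervals of the cells there, and Lin28b at 28.1 CPM was below. The same held in JupHigh, with Max at 142, Lin28a at 221 and Lin28b at 39.7 CPM. In JupLow Max was above, at 122 CPM, while Lin28a at 178 CPM and Lin28b at 29.9 CPM were below. Mga was below in JupLow and JupHigh, at 33.2 and 55.3 CPM. The 2i/LIF table held 2 such barcodes and gave no value. These barcodes thus carried the transcripts too, and how much of the cells' counts came from free RNA was not tested.

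**Figure D2:**
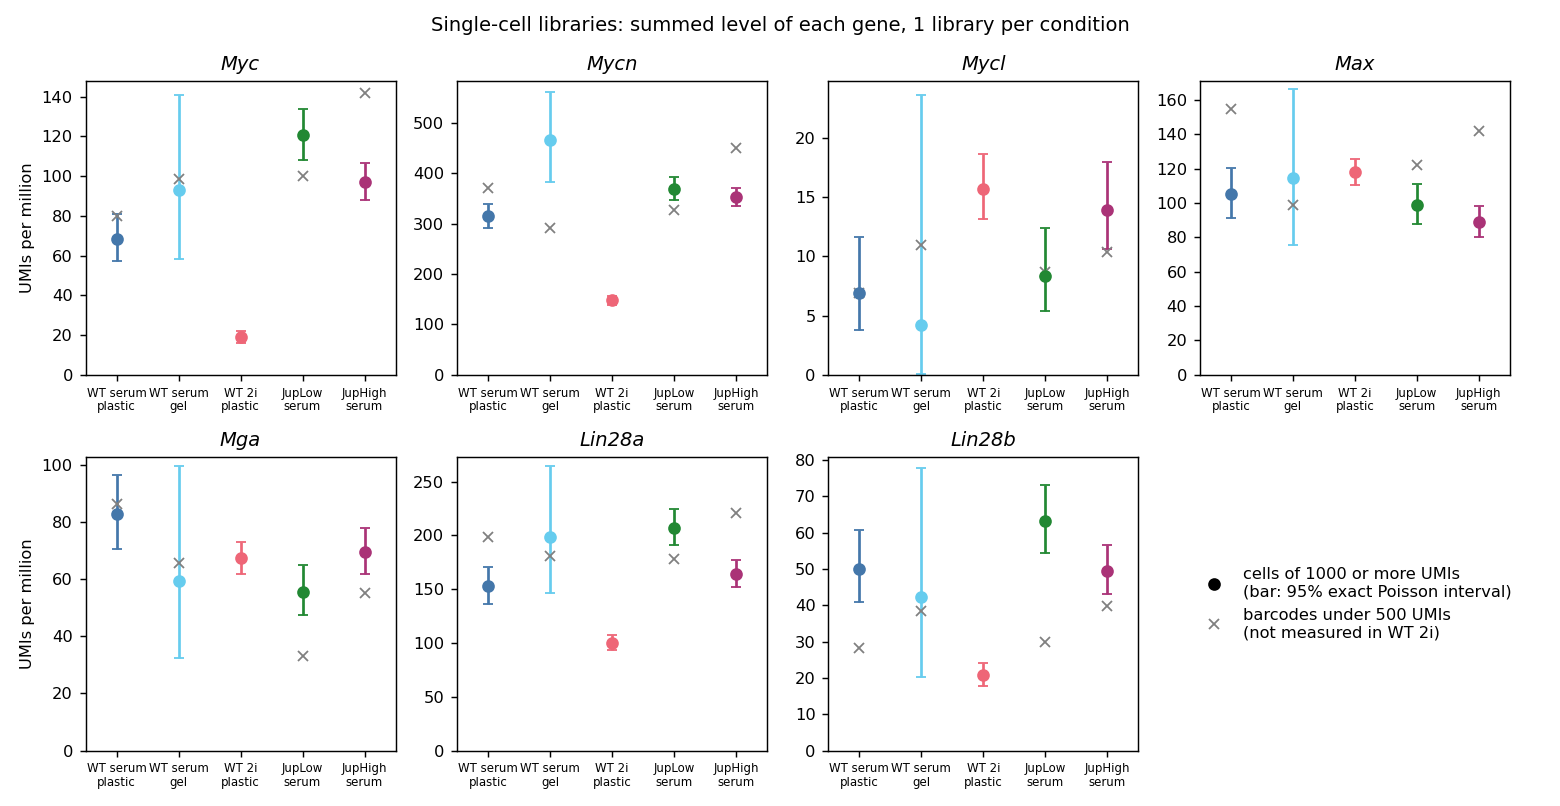
Summed level of each gene in CPM (y axis, from 0) in the 5 single-cell libraries (x axis), with 95% exact Poisson intervals as bars and the level in barcodes under 500 UMIs as crosses. Myc is at 19.1 CPM in 2i/LIF and at 68.4 to 120.6 CPM in the 4 serum/LIF libraries.

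Medium was compared first, as 2i/LIF over serum/LIF in wild-type cells on plastic. A gene counted as past 2-fold when its CPM differed by a factor of 2 or more and reached 20 in either library. Myc was 3.59-fold lower in 2i/LIF (log2 ratio -1.84, 95% interval -2.18 to -1.50). Mycn was 2.13-fold lower (log2 ratio -1.09, -1.23 to -0.95), and Lin28b was lower with a log2 ratio of -1.27 (-1.63 to -0.90). Lin28a was lower too, with a log2 ratio of -0.60 (-0.79 to -0.41), short of 2-fold. Thus 3 of the 6 genes at 20 CPM or more were past 2-fold and all 3 were lower, while 15.0% of the 7470 genes measured were past 2-fold lower and 24.7% in either direction. Max had a log2 ratio of 0.16 (-0.05 to 0.39) and Mga of -0.30 (-0.55 to -0.04). For Max the direction turned when every deposited barcode was summed (-0.23) or cells were thinned to 1000 UMIs (-0.12). Mycl had a log2 ratio of 1.18 (0.38 to 2.09), under 20 CPM in both libraries. With the minimum at 5 CPM 4 genes were past 2-fold, and Mycl was the one higher. The share of all genes past 2-fold at that minimum is not given here.

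This count touches the wild-type serum/LIF library, whose endoderm list is high and whose table counts some genes differently. Without cells holding 3 or more endoderm-list UMIs, the ratios were -1.94 for Myc, -1.20 for Mycn and -1.44 for Lin28b on the log2 scale. With TMM scaling, which moved every gene of this comparison by 0.14 on the log2 scale, Mycn came to -0.95, and with every deposited barcode Lin28b came to -0.83, so each left the 2-fold class there. In cells thinned to 2000 UMIs, Mycn averaged 0.3183 UMIs per cell in 2i/LIF and 0.6355 in wild-type serum/LIF on plastic, also just short of 2-fold. The library labelled JupLow was then put in place of the wild-type one, as an alternative chosen after seeing the data. It differs from the 2i/LIF library in line as well as in medium, and these cannot be told apart. Myc and Lin28a were themselves higher in JupLow than in wild-type serum/LIF (below). Against JupLow, Myc was lower in 2i/LIF with a log2 ratio of -2.66 (-2.94 to -2.38), Mycn with -1.32 (-1.44 to -1.20), Lin28b with -1.61 (-1.92 to -1.30) and Lin28a with -1.04 (-1.20 to -0.89). These 4 genes were past 2-fold, against 11.5% of 7297 genes past 2-fold lower, and Mga turned to 0.27 (0.02 to 0.54).

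The library labelled JupHigh carried naive pluripotency transcripts at the level of 2i/LIF cells, with the naive list of 15 genes at 3035 CPM against 2923 CPM in 2i/LIF and 731 to 947 CPM in the other 3 serum/LIF libraries. Its Myc, Mycn, Lin28a and Lin28b levels lay within the range of the other 3 serum/LIF libraries instead, while Mycl, at 13.9 CPM, was nearer to the 15.7 CPM of 2i/LIF. Over wild type in 2i/LIF, Myc was 5.08-fold higher (log2 ratio 2.35, 2.08 to 2.62), Mycn was higher with a log2 ratio of 1.26 (1.15 to 1.36) and Lin28b with 1.25 (0.95 to 1.55). Of the 6 genes at 20 CPM or more, 3 were past 2-fold and all 3 were higher, where 3.59% of 6859 genes were past 2-fold higher and 10.1% in either direction. Of 13 naive-list genes at 20 CPM or more, 1 was past 2-fold higher and 2 lower, with a median log2 ratio of -0.22, against -0.13 over all genes. Lin28a was higher by 0.71 (0.56 to 0.86), and Max was lower, with a log2 ratio of -0.41 (-0.58 to -0.23). Mga had a log2 ratio of 0.05 (-0.16 to 0.25) and Mycl of -0.17 (-0.64 to 0.28). The count of 3 was the same in every alternative that was run. The 2 libraries differ in medium and in line, and these cannot be told apart.

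**Figure D3:**
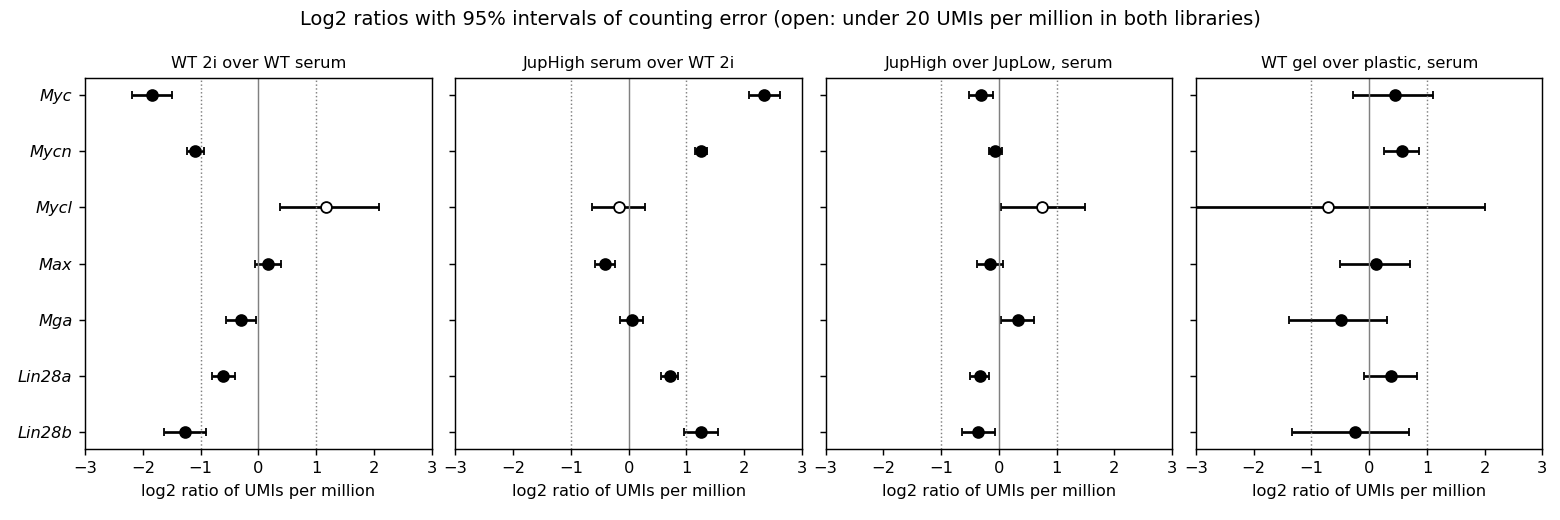
Log2 ratios of CPM (x axis) of the 7 genes (y axis) in 4 comparisons, with 95% intervals of counting error; open points are under 20 CPM in both libraries and dotted lines mark 2-fold. Myc, Mycn and Lin28b lie at -1.84, -1.09 and -1.27 in wild-type 2i/LIF over serum/LIF and at 2.35, 1.26 and 1.25 in JupHigh over 2i/LIF.

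Within serum/LIF the genes differed less. JupHigh and JupLow were each compared with the same wild-type library, so the values below are not independent. For JupLow over wild type, Myc was higher by 0.82 (0.53 to 1.11), Lin28a by 0.44 (0.24 to 0.64) and Mycn by 0.23 (0.09 to 0.37, or -0.01 with every deposited barcode) on the log2 scale, and Mga had a log2 ratio of -0.57 (-0.90 to -0.25). For JupHigh over wild type, Myc was higher by 0.50 (0.22 to 0.79), Mycn by 0.17 (0.03 to 0.30), and Mycl, at 13.9 against 6.94 CPM, by 1.00 (0.15 to 1.96). No gene of the 7 was past 2-fold at 20 CPM in either comparison, where 11.2% and 20.7% of all genes were. With every deposited barcode, Mga passed 2-fold lower in JupLow over wild type (log2 interval -1.22 to -0.78). In JupHigh over JupLow, Myc had a log2 ratio of -0.31 (-0.52 to -0.10), Lin28a of -0.33 (-0.49 to -0.17) and Lin28b of -0.36 (-0.65 to -0.06). Mga went the other way, with 0.32 (0.04 to 0.61), as did Mycl, under 20 CPM, with 0.74 (0.03 to 1.49), and Mycn had -0.07 (-0.18 to 0.05). TMM scaling moved every gene of this comparison up by 0.109. The Myc and Lin28b intervals then included 0, and the Lin28a interval did not. When every deposited barcode was summed, Lin28b turned to 0.06 (-0.18 to 0.30), Myc came to -0.09 and Mga to 0.64. None of the 7 was past 2-fold there, against 11.0% of 6950 genes, although the naive list separated the lines by a median log2 ratio of 1.98. In gel over plastic, with 10 to 110 UMIs per gene apart from Mycl in gel, 0 of 6 genes were past 2-fold against 20.4% of 7444. Mycn was higher in gel by 0.57 (0.26 to 0.86), or by 0.12 (-0.08 to 0.32) with every deposited barcode, while the intervals of Myc, Max, Mga, Lin28a and Lin28b all included 0.

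Ratios between genes of the same library do not depend on scaling and are read only across libraries, since capture differs between genes. There were 7.74 Mycn UMIs per Myc UMI (95% interval 6.55 to 9.19) in 2i/LIF, 4.59 (3.82 to 5.56) in wild-type serum/LIF on plastic and 5.0 (3.14 to 8.30) in gels. The ratio was 3.06 (2.71 to 3.46) in JupLow and 3.63 (3.26 to 4.06) in JupHigh. Thus Myc was lower in 2i/LIF by more than Mycn was. Lin28b UMIs per Lin28a UMI came to 0.207 (0.174 to 0.244) in 2i/LIF, 0.328 (0.259 to 0.412) in wild-type serum/LIF on plastic, 0.213 (0.0959 to 0.427) in gels, 0.305 (0.257 to 0.361) in JupLow and 0.301 (0.257 to 0.351) in JupHigh. With every deposited barcode, that ratio fell to 0.225 in wild-type serum/LIF on plastic against 0.230 in 2i/LIF, so that difference rests on the cell filter. It came to 0.236 (0.207 to 0.267) in JupLow and 0.275 (0.239 to 0.315) in JupHigh.

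Max, the shared partner, was the flattest of the set, at 88.8 CPM (80.2 to 98.2) in JupHigh, 99.0 CPM in JupLow, 105 CPM in wild-type serum/LIF on plastic, 114 CPM in gels and 118 CPM (110 to 125) in 2i/LIF. No neighbouring pair in that order differed beyond counting error. Mga lay between 55.6 CPM (47.3 to 64.9) in JupLow and 82.8 CPM (70.7 to 96.3) in wild-type serum/LIF on plastic, again with no neighbouring pair apart. Lin28a was at 100.4 CPM (93.7 to 107) in 2i/LIF, 153 CPM (136 to 171) in wild-type serum/LIF on plastic, 164 CPM (152 to 177) in JupHigh, 199 CPM (146 to 265) in gels and 207 CPM (191 to 224) in JupLow. Only the step from 2i/LIF to wild-type serum/LIF on plastic in that order exceeded counting error. Lin28b was at 20.8 CPM (17.8 to 24.1) in 2i/LIF and 42.3 CPM (20.3 to 77.9) in gels, from 10 UMIs, which did not differ beyond counting error. It was at 49.4 CPM (43.0 to 56.5) in JupHigh, 50.1 CPM (40.8 to 60.8) in wild-type serum/LIF on plastic and 63.2 CPM (54.4 to 73.1) in JupLow.

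After every cell was thinned to 1000 UMIs, the shares of cells with at least 1 UMI of Myc, Mycn or Lin28b were lowest in 2i/LIF. Myc was found in 1.59% of 2889 cells in 2i/LIF (exact binomial interval 1.17% to 2.12%; 4.78% unthinned), 6.76% in wild-type serum/LIF on plastic (15.3% unthinned), 10.2% in JupLow (20.7%) and 9.06% in JupHigh (16.3%). Mycn was found in 12.6% in 2i/LIF (29.8% unthinned), 26.8% in wild-type serum/LIF on plastic (44.6%), 25.1% in JupLow (41.7%) and 27.5% in JupHigh (44.4%). Among these serum/LIF libraries the Mycn shares were not in the order of the CPM, and no order is read from them. Lin28b was found in 1.94% in 2i/LIF and 4.69% to 6.17% in the serum/LIF libraries on plastic. The variance of Mycn UMIs among cells was 1.55 times the mean in gels, 1.51 times in JupLow, 1.28 times in wild-type serum/LIF on plastic, 1.18 times in JupHigh and 1.07 times in 2i/LIF; this measure rises with the mean, so genes are not ranked by it. Myc and Mycn were seen together in 48 cells of JupLow, where the product of their shares gives 30.9, and in 71 cells of JupHigh, where it gives 53.7. The other 3 libraries also had more such cells than the product gives. Lin28a and Lin28b were seen together in 8 cells of JupLow, where it gives 11.8, and in 12 of JupHigh, where it gives 16.0. The direction was the opposite elsewhere, with 8 cells against 4.83 in wild-type serum/LIF on plastic, 7 against 5.10 in 2i/LIF and 1 against 0.714 in gels.

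Cells were next split within each library by naive-list UMIs, 1 or more against 0, at 1000 UMIs per cell, with the list's own UMIs taken out of the totals. In JupLow, 551 cells with and 649 cells without such UMIs had Mycn at 475 against 251 CPM (log2 ratio 0.92, 0.63 to 1.21) and Myc at 153 against 87.8 CPM (0.80, 0.30 to 1.31). Max stood at 120 against 70.9 CPM there and Lin28a at 227 against 160 CPM. Lin28b went the other way, at 45.5 against 80.1 CPM (log2 ratio -0.82, -1.57 to -0.10). In that split the median log2 ratio of 1910 genes at 100 CPM or more was 0.23, with 1.94% past 2-fold higher and 0.576% past 2-fold lower. Lin28b, under 100 CPM in both groups, is outside that set, and genes at its level were not summarised. With 2 or more naive-list UMIs, the Mycn ratio in JupLow rose to 1.40 (1.07 to 1.72).

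In JupHigh, Mycn was at 366 CPM in 1900 cells with and 190 CPM in 253 cells without naive-list UMIs (log2 ratio 0.95, 0.52 to 1.40), and Lin28a at 174 against 87.0 CPM (1.00, 0.38 to 1.69). Myc was at 98.8 against 94.9 CPM in JupHigh (0.06, -0.56 to 0.74), and its interval included 0 in every library but JupLow. In JupHigh the median of 1627 genes was itself 0.73, with 25.1% past 2-fold higher. In 2i/LIF, 379 cells without naive-list UMIs had a median depth of 1666 UMIs against 2587.5 in the 2510 cells with them. Mycn was at 152 against 73.9 CPM there, Max at 123 against 58.0 CPM and Lin28a at 104 against 52.8 CPM, with 13.2% of genes past 2-fold higher. In wild-type serum/LIF on plastic, Mycn was at 386 against 300 CPM (0.36, -0.01 to 0.74), and no gene of the 7 had an interval that left out 0. With 2 or more naive-list UMIs, Mycn came to 0.60 (0.13 to 1.06) and Lin28b, from 2 UMIs, to -2.13 (-5.25 to -0.14) in that library. Depth moved with the split in 2i/LIF and the ratios of other genes moved in 2i/LIF and JupHigh, and their part in these values was not tested.

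**Figure D4:**
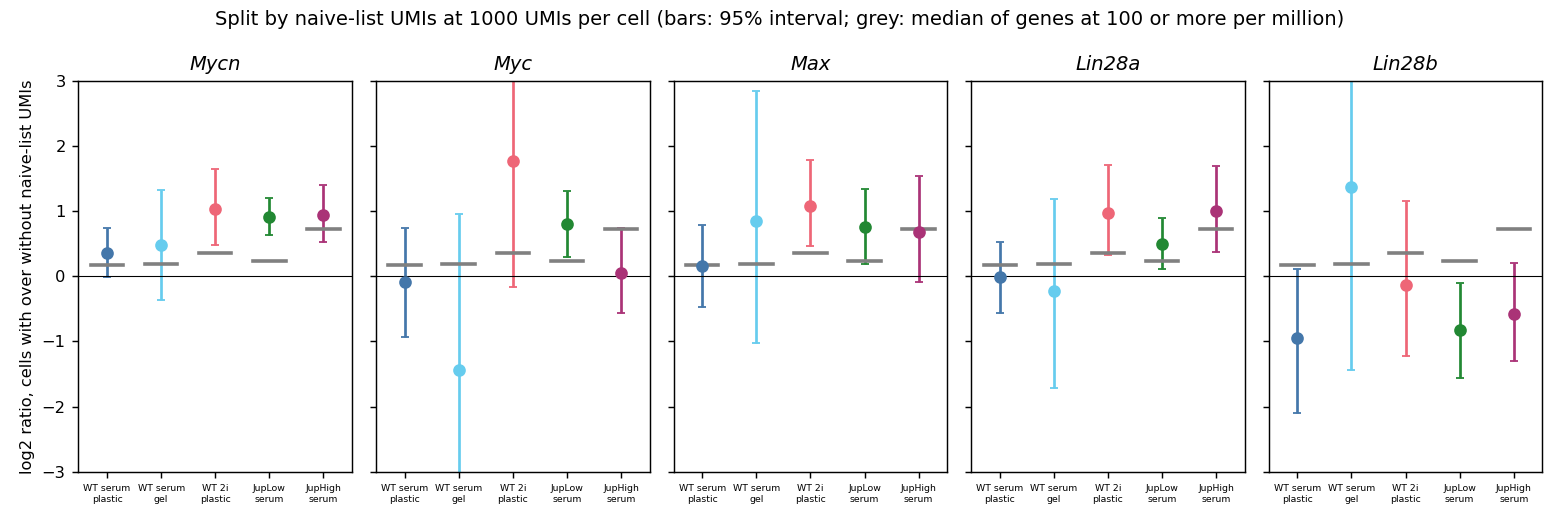
Log2 ratio of CPM in cells with over cells without naive-list UMIs (y axis) in the 5 libraries (x axis) for 5 genes, with 95% intervals as bars, some cut by the axis, and the median of genes at 100 CPM or more as grey lines. In JupLow, Mycn (0.92) lies above the grey line (0.23) and Lin28b (-0.82) below it. Lin28b is under 100 CPM in both groups of every library and so is outside the genes behind that line.

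Cells rich in primitive endoderm transcripts, with 3 or more UMIs of that list, were frequent enough to describe in 2 libraries. In wild-type serum/LIF on plastic, Mycn was at 203 CPM in 85 such cells and 394 CPM in 406 cells with none (log2 ratio -0.96, -1.77 to -0.23). Max was at 239 against 91.1 CPM (1.39, 0.53 to 2.21), from 20 and 37 UMIs. In JupLow, Mycn was at 179 CPM in 56 such cells against 421 CPM in 760 (-1.23, -2.30 to -0.33), while Max, from 4 UMIs in the former, had an interval that included 0. Lin28a was at 143 against 145 CPM in wild type and 197 against 193 CPM in JupLow. In these splits, 6.79% and 6.98% of genes at 100 CPM or more were past 2-fold lower and 18.0% and 21.9% past 2-fold higher.

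The bulk libraries compared gel with plastic in 2i/LIF in Rex1GFPd2 cells. Lin28a was the gene of the set that passed the main test, and it was higher in gels. It stood at 30.5, 24.6 and 26.1 in the 3 gel libraries and at 9.1, 12.5 and 10.6 in the 3 plastic libraries, in the deposited normalised values. The lowest gel value was above the highest plastic value, with means of 27.0 ± 3.07 (SD, n = 3) against 10.8 ± 1.69 (SD, n = 3). On the log2 scale this was a rise of 1.30 with an SE of 0.28 and an adjusted p of 0.00150 (limma, Benjamini-Hochberg adjustment over 7875 genes). The values rest on 19 to 27 recovered reads per gel library and 7 to 32 per plastic library. In bulk, more cells with a transcript and more of it per cell cannot be told apart.

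The other tested genes were also above plastic in every gel library but did not pass the test. Mycn was at 73.4, 74.9 and 63.2 in gel and 48.2, 54.0 and 56.2 in plastic, a log2 difference of 0.41 with an SE of 0.16 (limma, adjusted p = 0.0521). Mga was at 86.9, 104.4 and 112.7 in gel and 73.1, 83.7 and 75.9 in plastic, a log2 difference of 0.38 with an SE of 0.15 (limma, adjusted p = 0.0532). Max was at 26.0, 20.9 and 34.4 in gel and 17.9, 17.2 and 16.7 in plastic, a log2 difference of 0.61 with an SE of 0.26 (limma, adjusted p = 0.0724). Of the 7 genes, 4 passed the filter on low reads and 1 of these was called, where 36.9% of all tested genes were called, 18.3% higher and 18.6% lower. Non-overlapping groups, found for all 4, were found for 49.5% of tested genes. With edgeR's quasi-likelihood test on the recovered reads, Mycn (adjusted p = 0.0267) and Mga (adjusted p = 0.0397) passed as well. The share of all genes called by that test is not given here, so this is not read as a result about these genes.

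Myc was at 4.5, 2.5 and 6.9 in gel and 3.7, 4.3 and 1.5 in plastic, from 1 to 11 reads per library, and Mycl at 16.9, 8.6 and 16.5 in gel and 9.6, 9.8 and 10.6 in plastic. Both pairs of groups overlapped, and both genes were left out by the filter. Without it their adjusted p-values in limma were 0.611 and 0.440. Values per kilobase were taken over the exons of all annotated transcripts of a gene, so they compare levels between genes only roughly. On that scale Mycn was highest on plastic at 16.0 ± 1.25 (SD, n = 3), followed by Mga at 5.06 ± 0.358, Max at 4.80 ± 0.163, Lin28a at 2.69 ± 0.424, Mycl at 2.47 ± 0.139 and Myc at 1.17 ± 0.542. In gel, Lin28a reached 6.77 ± 0.767 (SD, n = 3) per kilobase, beside Mga at 6.60 ± 0.858 and Max at 7.52 ± 1.89.

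**Figure D5:**
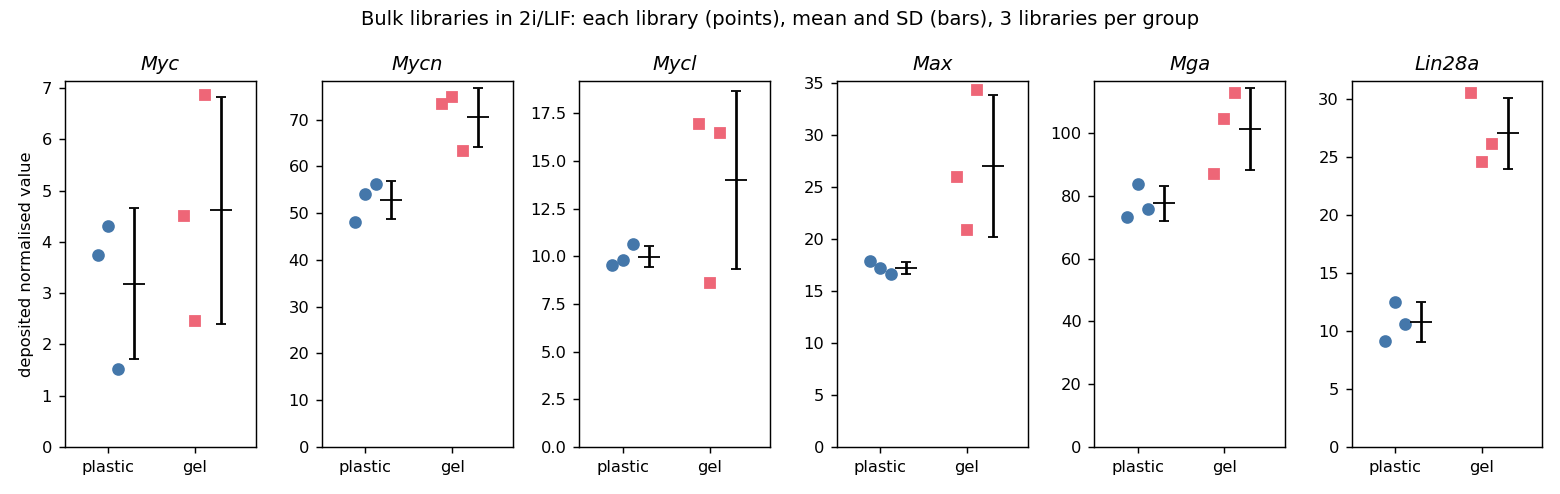
Deposited normalised value (y axis, from 0) of the 6 listed genes in each bulk library, 3 on plastic (circles) and 3 in gel (squares), with mean and SD beside them. All 3 gel values of Lin28a (24.6 to 30.5) lie above all 3 plastic values (9.1 to 12.5).

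The wider pathways were read from lists of textbook genes. In bulk, MYC targets were called in both directions, 8 of 30 tested higher in gel and 6 lower, with a median log2 fold change of 0.06 against -0.02 over all tested genes. Over all tested genes 18.3% were called higher and 18.6% lower, which is the background for each list below. The largest rise was Fbl, for the nucleolar methyltransferase fibrillarin (log2 fold change 1.34), and the largest fall was Gart, a purine synthesis enzyme (-1.04). Of 14 MYC cofactors and turnover factors, 5 rose and 4 fell, led by Hcfc1, a chromatin cofactor (1.19), and Fbxw7, the ubiquitin ligase receptor that marks MYC for destruction (-0.67). The 3 tested members of the wider MAX network did not pass. For the MGA polycomb complex, 2 of 10 tested subunit genes rose and 3 fell, with Rybp at 1.28 and Cbx3 at -0.76. Of 6 tested germline genes repressed by that complex, 4 fell and 0 rose, with Stra8, a meiosis gene, at -3.79. Only 6 of 16 listed genes could be tested there.

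For the LIN28 and let-7 pathway in bulk, 4 of 9 tested microRNA processing genes rose in gel and 0 fell, with a median log2 fold change of 0.53, against 18.3% higher, 18.6% lower and a median of -0.02 over all tested genes. Ago1, an Argonaute protein that carries microRNAs, had the largest rise at 1.32. Of 13 tested let-7 target genes, 3 rose and 1 fell, with a median of 0.28. Hmga1, a chromatin architecture gene with near-identical copies in the genome, led with 2.45, and Nras, a small GTPase gene, was the one that fell (-0.58). Pluripotency markers moved in both directions, with 7 of 15 naive-list genes higher in gel, led by Klf2 (2.08), and 3 lower, led by Dppa3 (-0.68). Of 8 ES cell markers 4 rose, led by Utf1 (1.63), and 3 fell, led by Sall4 (-0.80). Of 13 endoderm markers, 2 were listed in bulk and 1 was tested, Sparc, at 207 ± 11.7 (SD, n = 3) in gel and 201 ± 19.6 (SD, n = 3) in plastic, which did not pass.

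In the single cells, 1 of 32 MYC targets was past 2-fold higher and 4 lower in wild-type 2i/LIF over serum/LIF, with a median log2 ratio of -0.13 against -0.03 over all genes, of which 24.7% were past 2-fold. Gart was the one higher (1.00), and it was low in the wild-type serum/LIF plastic library alone, at 115 CPM against 230 CPM in 2i/LIF and 271 to 284 CPM in gels, JupHigh and JupLow. The lowest, Nme2, is a gene on which the 2 tables differ in counting; the other 3 were Ccnd2 (-4.09), Ldha (-1.70) and Odc1 (-1.10), named after their values were seen. They encode cyclin D2, lactate dehydrogenase A and ornithine decarboxylase, the first enzyme of polyamine synthesis. In JupHigh over 2i/LIF, 2 of 32 targets were past 2-fold higher and 0 lower, with a median of 0.13 against -0.13 over all genes, of which 3.59% were past 2-fold higher. Ccnd2 was at 22.0 against 2.66 CPM there (log2 ratio 3.05) and Ldha at 528 against 176 CPM (1.58). Within the MAX network, Mlx, a MAX-like partner gene, was at 12.4 CPM in wild-type serum/LIF on plastic and at 36.4 to 47.4 CPM in the other 4 libraries. Mlxip, its partner gene, was at 41.6 CPM there and at 9.2 to 19.8 CPM in the others, so both set that library apart from all others, whatever the medium. So did Kat5, which encodes an acetyltransferase that works with MYC, with 1 UMI in that library and 21.2 to 27.4 CPM in the others. Kat5 was the furthest apart of 2 of 14 MYC cofactors past 2-fold higher in 2i/LIF, where 725 of 7470 genes were. Whether that table counts Gart, Mlx, Mlxip or Kat5 differently, as it does Nme2, was not tested.

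Of 16 let-7 targets in wild-type 2i/LIF over serum/LIF, 2 were past 2-fold higher and 2 lower, near the 24.7% of all genes past 2-fold, with Ccnd1, for cyclin D1, at 2.07 and Ccnd2 at -4.09 on the log2 scale. Ccnd1 was at 49.1 CPM in wild-type serum/LIF on plastic and 72.0 CPM in gels, but at 179 CPM in JupHigh and 191 CPM in JupLow, near the 206 CPM of 2i/LIF. In JupHigh over JupLow, 5 of 17 were past 2-fold lower and 0 higher, with a median of -0.32 against -0.13 over all genes, where 8.40% of genes were past 2-fold lower. Hmga2, a chromatin architecture gene, fell furthest, from 77.1 to 19.3 CPM (a log2 ratio of -2.0). Lin28a and Lin28b were lower in the same comparison by less, as given above. Among the microRNA processing genes, Tut7, a terminal uridylyltransferase that acts with LIN28, was at 5.5 CPM in wild-type serum/LIF on plastic and at 25.3 CPM in 2i/LIF, with 22.7 CPM in JupHigh and 28.5 CPM in JupLow, so the wild-type serum/LIF library stood apart from the other 3 on plastic. In gels Tut7 was under 20 CPM. Whether Tut7 was counted differently in the wild-type serum/LIF library was not tested. The MGA complex held 1 of 10 genes past 2-fold in 2i/LIF over serum/LIF, against 24.7% of all genes, Yaf2 (-2.35), a gene that was also past 2-fold lower in JupHigh over JupLow (-1.66).

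The genes whose levels over the 5 single-cell libraries were most like those of each member were ranked by the root mean square difference of centred log2(CPM + 1), among 8052 genes at 20 CPM or more. With 5 libraries this is a description of shape. Syngr3 was nearest to Myc (difference 0.118), at 13.9, 3.14, 16.9, 27.8 and 17.6 CPM in wild-type serum/LIF, 2i/LIF, gel, JupLow and JupHigh, followed by Hook1 and Tasor2. Suclg2 was nearest to Mycn (0.078), followed by Maco1 and B3gnt7. Uck2 was nearest to Max (0.021), with Psmd11 and Anapc16 next, and Dnm2 to Mga (0.035), with Rangap1 and Eif4a1 next. Alg10b was nearest to Lin28a (0.046), with Nras (0.050) and Tnks2 next, and Jmjd1c to Lin28b (0.075), with Ptp4a3 and Grb7 next. Mycl was under 20 CPM in every library and was not ranked.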

How the data were processed

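Bulk Smart-seq2 libraries (3 gel, 3 plastic) and 5 inDrop libraries of mouse ES cells were analysed. The submitters' processing notes name FastQC, STAR, featureCounts, DESeq2, Scanpy and the builds mm10 and GRCm38, without versions or roles. The deposited bulk values are a normalised signal, gene counts divided by 1 factor per library: 100% of the values came out as whole reads within 0.01 reads, and 6 rows with repeated names were left out. limma 3.58.1 in R 4.3.3 was fitted on log2(value + 0.5) with an intensity trend, after edgeR's filter (version 4.0.16) on the recovered reads, which kept 7875 of 12582 genes, with Benjamini-Hochberg adjustment at 0.05. Fold changes are on that scale, which understates low genes. As alternatives, the recovered reads were tested with edgeR and with DESeq2 1.42.0. Nothing in the labels says that the libraries came from separate cultures, so p-values measure the spread between these libraries, which may be technical. Checks for libraries deposited more than once gave a chi-square of 1.58 or more per degree of freedom.

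For the single cells, whole UMI counts of each gene in each barcode were deposited. Barcodes with 1000 or more UMIs were kept, without a doublet caller, while barcodes of G runs (8 at either end) and unnamed columns (at most 0.499% of a library's UMIs) were left out. UMIs were summed per library and scaled to CPM, with exact Poisson intervals and exact conditional binomial intervals of ratios at 95%; a total of 3 UMIs corresponds to 0.362 to 12.7 CPM. The bulk step was tested on simulated data: of 200 genes changed 4-fold among 12582 simulated, 98% were called, 2.49% of calls were false, and 0 were called when none changed. The simulation gave all genes a common spread and held no smaller change, so it does not cover the changes of Mycn, Mga or Max. The genes and lists were chosen with earlier results of these data known. Beside the 7 genes, the largest rise and fall among called genes is named for the lists and comparisons described, and the 3 genes nearest to each member ranked by level.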

Additional observations from a re-analysis of the deposited data

How the results depend on the processing

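In bulk, the count of the 7 genes called (1, Lin28a) was 0 when at least 10 reads were required in every library, a filter that removes Lin28a, 3 with edgeR and TMM scaling, 3 with values rescaled by TMM factors, 2 with the replicate number as a block, and 1 to 2 when 1 library was left out. Lin28a kept its direction and its call in every other alternative in which it was tested. For the counts of 3, the share of all genes called is not given here. Those counts are therefore not read as a result about the 7 genes. Without gel replicate 1 Mga passed, without gel replicate 2 Max and without gel replicate 3 Mycn, while all genes called numbered 2351 to 2832 against 2905. The rise of 1438 and fall of 1467 genes became 453 and 274 (727 in all) when a log2 fold change of 1 was also required. With the replicate block, 2987 genes were called. The deviations of same-numbered libraries correlated at -0.052, 0.016 and 0.024, and those of other pairs at -0.064 to 0.050. These values show no sign of pairing by number but cannot settle it. In single cells, 309 recomputed ratios of the genes stayed within the interval of the main value, 30 moved outside it and 3 reversed, which counts a change of sign only where the main interval left out 0; ratios whose interval included 0, such as Max in 2i/LIF over serum/LIF, could also change sign. Those 3 were Mga in 2i/LIF over the library labelled JupLow (0.27), and, with every deposited barcode, Mycn in JupLow over wild type (-0.0090) and Lin28b in JupHigh over JupLow (0.059). The count past 2-fold rose from 0 to 1 in JupHigh over wild type at 5 CPM (Mycl), a minimum at which Mycl also took the count in 2i/LIF over serum/LIF from 3 to 4, and from 0 to 1 in JupLow over wild type with every barcode (Mga). Shares of all genes past 2-fold under these settings are not given here. TMM scaling moved every gene by 0.19 in JupHigh over wild type and by 0.11 in JupHigh over JupLow on the log2 scale. The Myc and Lin28b intervals of the latter then included 0, as did that of Mycn in gel over JupLow. For Mycl, gel over plastic without endoderm-list cells gave no value. Depth limits Mycl throughout and every gene in the gel library.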
